A study of Mus musculus with 4 samples.

Results

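The mRNAs of the proteins of the small subunit of the cytosolic ribosome were compared between a mitochondrial and a rest fraction of the adult mouse heart. Members were the genes with the biotype protein_coding whose symbol is Rps followed by a number (with an optional a, x, l or 1 at the end), together with Rpsa and Fau, and 33 of the 15746 genes in the table met this rule. The cytosolic ribosome translates the mRNAs made in the nucleus, including those of nearly all mitochondrial proteins. Its small subunit carries the decoding site and binds the mRNA and the initiation factors, whereas the large subunit joins the amino acids. Ribosomal protein mRNAs are short, abundant in most cells and made from single functional genes with many processed pseudogene copies, and they carry a pyrimidine tract at the cap, the 5′ terminal oligopyrimidine (TOP) motif, through which mTOR signalling controls their translation.

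RNA-seq libraries were made from total RNA of hearts of wild-type mice (genotype WT), with no other treatment than the fractionation. The 2 libraries of the mitochondrial fraction are labelled as isolated mitochondria, and the 2 libraries of the rest fraction as tissue minus mitochondria. Following the study's methods, minced and trypsin-treated hearts were homogenised, and a low-speed pellet (cell debris) gave the rest fraction. A higher-speed spin gave a pellet of mitochondria and a supernatant that was removed, so this supernatant is in neither fraction. The mitochondria were treated with digitonin and RNase A before RNA extraction. That enzyme step and an adjusted fragmentation time are described for mitochondrial samples only, so their effect and that of the fraction cannot be told apart. Neither labels nor methods tie a library to an animal, so p-values measure the spread between these libraries, which may be technical. Values are normalized counts, that is, counts divided by a size factor per library.

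Reads on genes amounted to about 47300000 and 32100000 in the mitochondrial and 26300000 and 23500000 in the rest libraries. Genes of the mitochondrial chromosome accounted for 97.6% and 93.5% of all normalized counts in mitochondrial replicates 1 and 2, and for 63.2% and 67.5% in rest replicates 1 and 2. A read was worth 3.87 and 2.55 normalized counts in the former and 0.264 and 0.365 in the latter. The summed level of 8 cardiomyocyte markers was 290431 and 215901 in the mitochondrial and 240580 and 211067 in the rest libraries, and none of these markers was at 0. Myh6 dominated this sum, with 174838 and 128576 against 184487 and 161461. The median log2 fold change (mitochondrial over rest) of the 8 markers was 1.23. It was above 0 for 6 of them and below 0 for Myh6 (−0.20) and Ryr2 (−1.35). Of the listed markers of 5 other cell types, Tagln (smooth muscle) was not analysed here, and Alas2 was at 0 in mitochondrial replicate 1. The others were above 0 in all libraries. The 5 endothelial markers summed to 1429 and 1262 against 2473 and 2248, the other 2 smooth muscle markers to 136 and 423 against 588 and 1374, and the 5 erythroid markers to 50 and 341 against 824 and 440. The 5 fibroblast markers summed to 8188 and 3440 against 2175 and 3063, and the 4 macrophage markers to 464 and 276 against 162 and 235. Whether cell type content takes part in the results below was not tested, and in bulk samples fewer cells of a type and less RNA per cell cannot be told apart.

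The members' genes lie on 14 chromosomes, 9 of them on chromosome 7, and their coding lengths (start codon to last sense codon) run from 168 bases in Rps29 to 885 bases in Rpsa, with a median of 438. The RefSeq start regions of members were searched for the letters of a TOP-like tract, a C followed by at least 7 further C or T on the mRNA strand, within 30 bases of the start on either side. A tract that covers the start itself was found for 7 of the 25 members with an entry in the table (28%), against 3.39% of all 27025 genes and 28.6% of 35 large subunit genes. The 30 bases around the start are given for these 7, 5′ to 3′ on the mRNA strand of GRCm38.p6, to show the letters found. A tract had to cover the start but not to begin there. The tract of Rps9, for instance, begins at −5 from the start, and its start base is a T. Capitals mark the tract.

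Fau, chr19:6057932-6057961, plus strand: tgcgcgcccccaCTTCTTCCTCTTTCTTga
Rps10, chr17:27635230-27635259, minus strand: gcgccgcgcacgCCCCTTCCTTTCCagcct
Rps18, chr17:33955651-33955680, minus strand: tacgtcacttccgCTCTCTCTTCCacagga
Rps6, chr4:86857353-86857382, minus strand: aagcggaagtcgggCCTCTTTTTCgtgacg
Rps27, chr3:90213634-90213663, minus strand: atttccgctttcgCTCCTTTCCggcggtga
Rps24, chr14:24490663-24490692, plus strand: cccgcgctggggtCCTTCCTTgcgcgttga
Rps9, chr7:3704026-3704055, plus strand: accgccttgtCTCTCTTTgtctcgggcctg

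The longest tract, of 16 bases, belonged to Fau, and the shortest, of 8 bases, to Rps24 and Rps9. A match describes these letters only. A tract shorter than 8 bases, or 1 at a start that RefSeq places elsewhere, would not be counted.

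On the deposited scale, every tested member had a higher level in the mitochondrial fraction, with fold changes from 1.82 (Rps4x) to 4.24 (Rps29). Of the 33 members, 32 passed the filter on low values (10 normalized counts or more in 2 or more libraries). Among them 18 were called higher and 0 lower at an adjusted p under 0.05 (limma on log2 of the normalized count plus 1, Benjamini-Hochberg adjustment over 12150 genes), where 2.16% of all tested genes were called higher and 1.39% lower. The median log2 fold change of the tested members was 1.46, against −0.14 for all tested genes. Adjusted p-values lay close to the threshold on either side, from 0.0427 to 0.0489 in the 18 called members and from 0.0511 to 0.0875 in the other 14. At an unadjusted p under 0.05 all 32 were higher and 0 lower, compared with 14.1% of all tested genes that were higher. In all 32 both mitochondrial values exceeded both rest values, as did those of 27.7% of all tested genes.

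**Figure D1:**
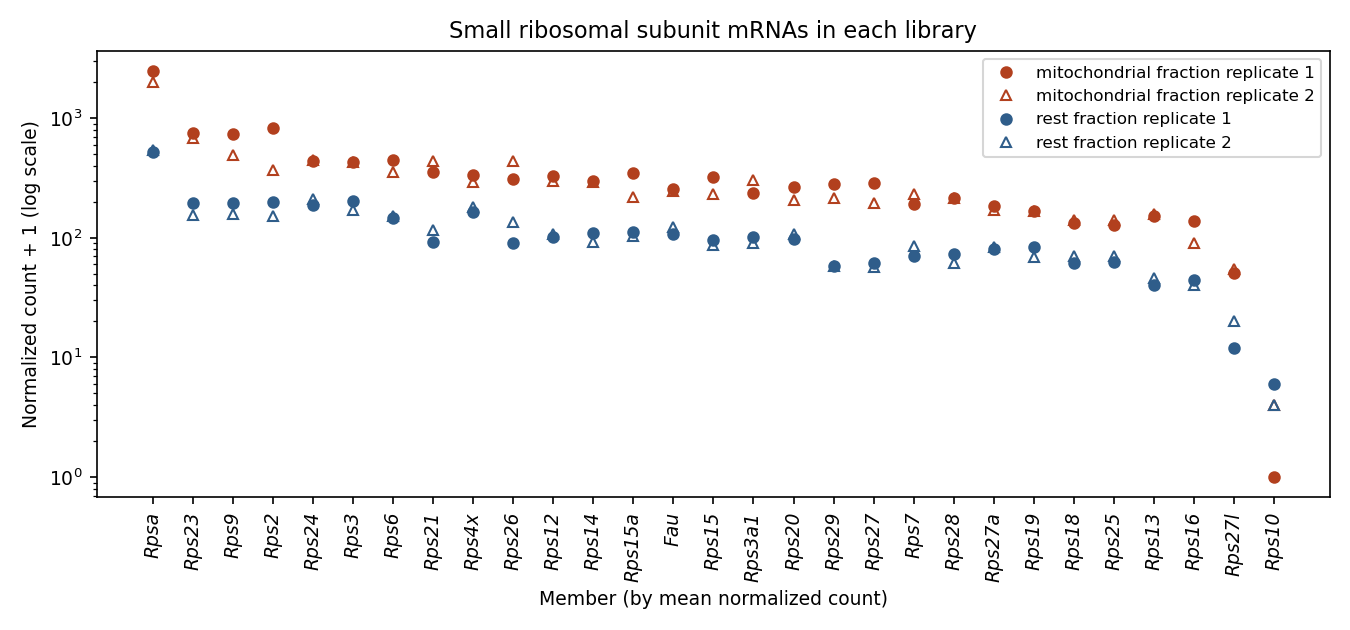
Normalized count plus 1 (log scale) of 29 members in each library, ordered by mean level. Circles and triangles are replicates 1 and 2, red the mitochondrial and blue the rest fraction. The red symbols lie above the blue ones for every plotted member except Rps10 at the far right.

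The direction depended on the scaling of the libraries. When the libraries were scaled to their totals, in which transcripts of the mitochondrial chromosome dominate, the members' median log2 fold change was −2.49 against −3.93 for all tested genes. All 32 were then called lower, as were 98.9% of all tested genes, so this count is at the background. Scaled to the total without the mitochondrial chromosome, the members' median was 0.60, against −0.98 for all tested genes, and 5 members were called higher and 0 lower, where 1.06% of all tested genes were called higher and 31.4% lower. Under each of these scalings all 32 tested members lay above the median of all tested genes, so that the higher level is relative to other nuclear transcripts. The members together took 0.278% (95% Wilson interval 0.268 to 0.288) and 0.202% (0.196 to 0.208) of the counts outside the mitochondrial chromosome in the mitochondrial libraries. In the rest libraries this share was 0.148% (0.145 to 0.150) and 0.136% (0.134 to 0.139). These intervals cover counting error only. The means were 0.240% ± 0.0536 (SD, n = 2) and 0.142% ± 0.00811 (SD, n = 2), so the mitochondrial replicates differed from each other by more than the rest replicates did. An exact permutation test of 2 against 2 libraries cannot give a two-sided p under 0.333 and was not run. As a share of all counts, the order was the opposite, with 0.00676% and 0.0131% in the mitochondrial and 0.0544% and 0.0443% in the rest libraries.

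**Figure D2:**
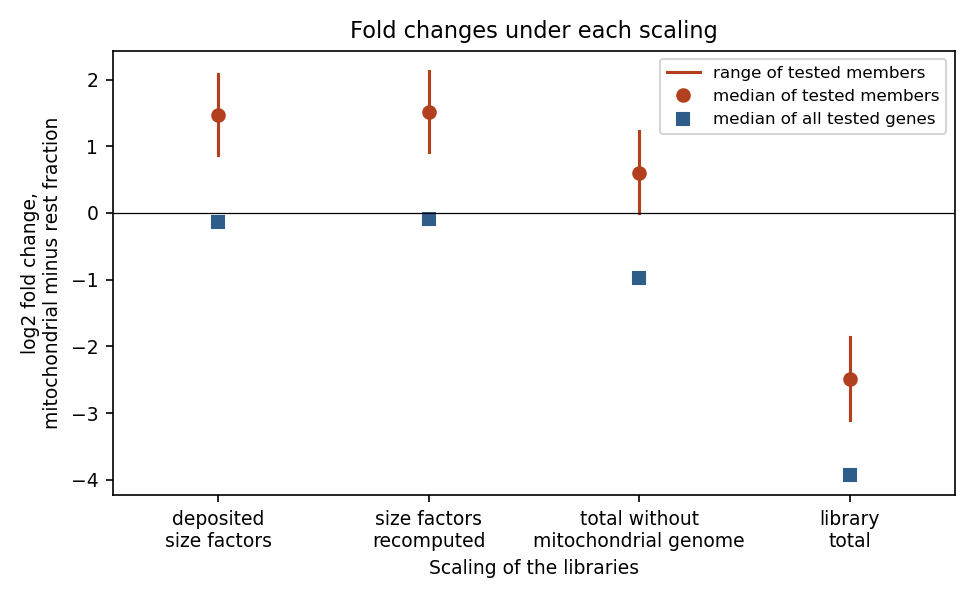
Median (circles) and range (lines) of the log2 fold change of the tested members, and median of all tested genes (squares), under 4 scalings of the libraries. The members' median moves from 1.46 with the deposited size factors to −2.49 with the library total, and stays above the median of all tested genes in each.

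Calls over the whole table depended on single libraries and on the pseudocount. With any 1 of the 4 libraries left out, calls were lost over the whole table, members included. The members' median log2 fold change stayed between 1.41 and 1.57. With a pseudocount of 0.1 limma called 0% of all tested genes, and the members had adjusted p-values from 0.0543 to 0.106. Among the 5556 genes with a mean above 50 normalized counts, 30 of 31 tested members were called higher, against 14.2% of all genes tested there.

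Rpsa, on chromosome 9 (120127689 to 120132369, plus strand), encodes a ribosomal protein also known as the laminin receptor and was the most abundant member. It reached 2471 and 1990 normalized counts in mitochondrial replicates 1 and 2, against 517 and 541 in rest replicates 1 and 2, and the fractions did not overlap. (In the values below, the 2 mitochondrial replicates likewise precede the 2 rest replicates.) Its log2 fold change was 2.07 ± 0.18 (SE; adjusted p = 0.0427, limma). Rpsa alone held 19.3% of the members' summed level in mitochondrial libraries and 13.9% in rest libraries, and the ratio of the members' mean sums between fractions was 3.05 with it and 2.86 without it. Next in mean level was Rps23, a protein of the decoding site, with 755 and 676 against 194 and 153. Its log2 fold change was 2.05 ± 0.20 (SE; adjusted p = 0.0427, limma). Per kilobase of coding length, Rpsa had a mean level of 2520 normalized counts in the mitochondrial fraction and 598 in the rest fraction. It was followed in the mitochondrial fraction by Rps23 with 1668 and in the rest fraction by Rps24 with 499. Reads were counted on all exon bases, so this order depends on the length used. The coding length of Rps24, for instance, is 399 bases, but its mRNA length is 1613 bases.

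Rps27l and Rps16 were among the tested members with the lowest levels. Rps27l, a paralogue of Rps27, had 50 and 54 normalized counts against 11 and 19, which correspond to about 13 and 21 reads in the mitochondrial and 42 and 52 reads in the rest libraries. The log2 fold change of Rps27l was 1.77 with a 95% interval from 0.79 to 2.76 and did not pass the threshold (adjusted p = 0.0653, limma). Rps16, a head protein, had 136 and 89 against 43 and 39, and missed the threshold (adjusted p = 0.0645, limma), although the fractions did not overlap. Over the 32 tested members, the median number of reads was 75.5 and 106 in the mitochondrial and 373 and 282 in the rest libraries. Relative counting error was thus typically larger on the mitochondrial side, whereas the errors from limma rest on the spread between libraries.

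Rps29, on chromosome 12 (69157722 to 69159186, minus strand), a short zinc-binding protein of the head, had the largest fold change. Its normalized counts were 283 and 212 against 57 and 57, and its log2 fold change was 2.08 ± 0.23 (SE; adjusted p = 0.0427, limma). At the other end stood Rps4x, the X-linked member of a family with a Y-linked copy in humans, located at 102184941 to 102189394 on the minus strand. Rps4x had 333 and 291 against 163 and 178 normalized counts, a log2 fold change of 0.87 ± 0.18 (SE; adjusted p = 0.0646, limma). The 95% interval of Rps4x, 0.39 to 1.34, ended below that of Rps29, 1.48 to 2.68, and the difference between the genes was not tested. Rps25, which is required for initiation at several viral internal entry sites, also had a small log2 fold change (1.01). Rps25 had 128 and 140 against 62 and 70 normalized counts.

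**Figure D3:**
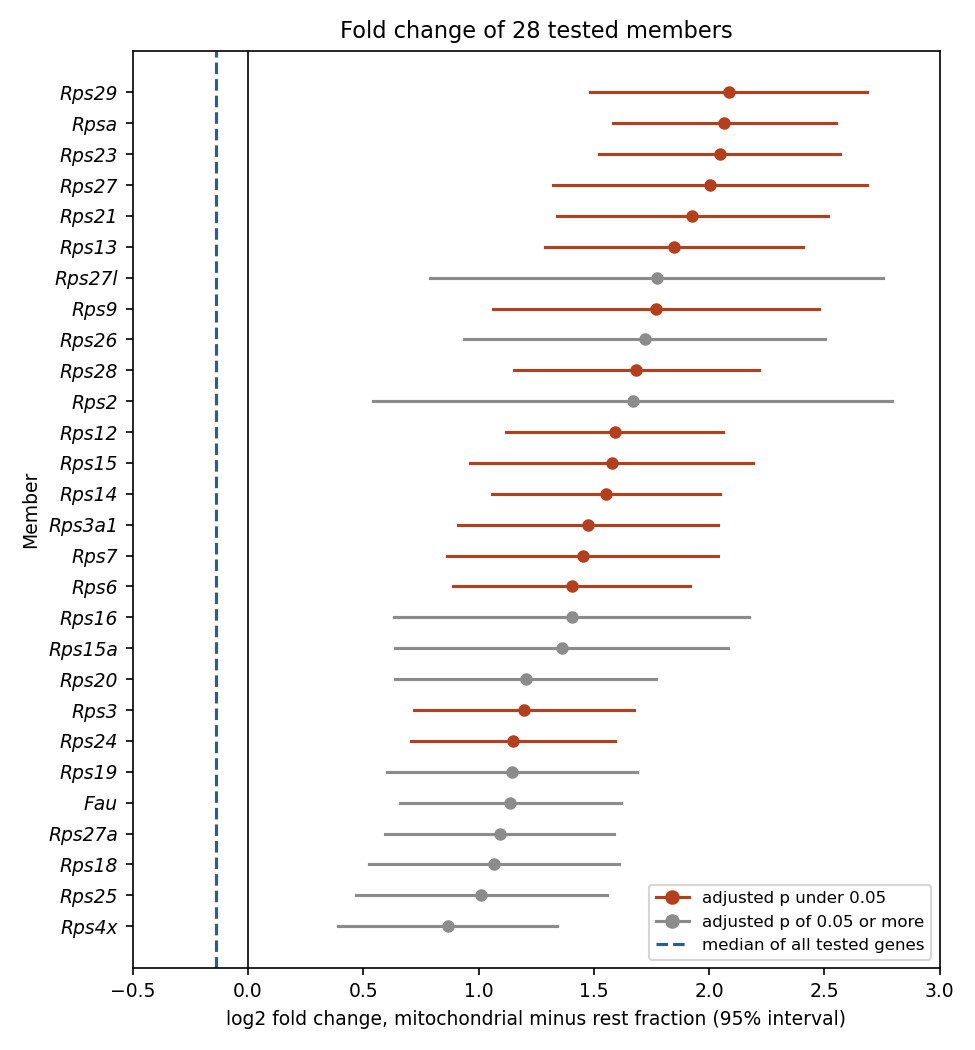
Log2 fold change of 28 tested members with its 95% interval from limma, ordered by size. Red marks the 16 of them with an adjusted p under 0.05 and the dashed line the median of all tested genes. All intervals lie above 0, and they overlap between neighbours in the order.

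The order of the members by level was largely shared by the fractions. Across the 32 tested members the log2 mean level in the rest and in the mitochondrial fraction had a Pearson correlation of 0.94 and a Spearman correlation of 0.92, a description over genes that share libraries and that are not independent replicates. The log2 fold change had a Pearson correlation of 0.06 with the log2 rest level. Replicates of the mitochondrial fraction differed most in Rps2, with 825 and 367 normalized counts and so a ratio of 2.25, and the log2 fold change of Rps2, 1.67 ± 0.43 (SE), had the largest error of all members and the highest adjusted p (0.0875, limma). Rps2 is a protein of the mRNA entry side. Across members the ratio of mitochondrial replicate 1 to 2 ran from 0.705 to 2.25 with a median of 1.06, and that of the rest replicates had a median of 0.960. The values of Rps26 ran the other way, 306 and 434 in mitochondrial replicates 1 and 2, against 90 and 134 in the rest libraries, and it missed the threshold (adjusted p = 0.0547, limma).

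By place in the subunit, 7 of 13 tested proteins of the head and 11 of 18 of the body and platform were called higher, and none lower. Their median log2 fold changes were 1.34 and 1.51. In the head, Rps3, a protein of the mRNA entry channel, had 426 and 426 against 203 and 169 normalized counts (log2 fold change 1.20 ± 0.18 (SE), adjusted p = 0.0484, limma). Rps15 and Rps12, also head proteins, had 318 and 232 against 95 and 86, and 329 and 296 against 100 and 106. Rps28, near the mRNA exit, had 213 and 214 against 72 and 60 with a log2 fold change of 1.69. The head protein Rps19, mutated in Diamond-Blackfan anaemia, had 167 and 166 against 82 and 68 and missed the threshold (log2 fold change 1.15, adjusted p = 0.0561, limma). Rps18 (132 and 140 against 60 and 69) and Rps20 (267 and 207 against 97 and 106) had adjusted p-values of 0.0602 and 0.0556 (limma).

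In the body and platform, Rps6, the substrate of the S6 kinases, lies on chromosome 4 (86854660 to 86857412, minus strand). Its normalized counts were 442 and 352 against 145 and 152, a log2 fold change of 1.40 ± 0.20 (SE; adjusted p = 0.0469, limma). Rps14, a platform protein whose loss underlies the anaemia of the 5q syndrome, had 298 and 291 against 108 and 92 (log2 fold change 1.55, adjusted p = 0.0427, limma). Rps3a1 and Rps7, both body or platform proteins, had 236 and 301 against 101 and 90, and 190 and 232 against 69 and 84. Their log2 fold changes were 1.47 and 1.45. Rps13 (151 and 156 against 39 and 45) and Rps21 (352 and 436 against 91 and 115) had log2 fold changes of 1.85 and 1.93. Rps9, which binds the ribosomal RNA early in assembly, had 732 and 487 against 195 and 156, and Rps24, with 434 and 449 against 188 and 210, had the smallest fold change of the called members (log2 1.15). Rps15a (345 and 219 against 110 and 103) missed the threshold, with an adjusted p of 0.0628 (limma).

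By conservation, 9 of 15 tested members with a counterpart in bacteria and 9 of 16 found outside bacteria were called higher, with median log2 fold changes of 1.55 and 1.43. Both genes that encode a fusion protein missed the threshold on the deposited scale. Both passed it with recomputed size factors, with no filter on low values, among genes with a mean above 50 and with a pseudocount of 10 (adjusted p from 0.0151 to 0.0484, limma). Rps27a and Fau missed it with the total without the mitochondrial chromosome (adjusted p = 0.519 and 0.427, limma) and with a pseudocount of 0.1 (0.0637 and 0.0620, limma). With the replicate block Fau passed (0.0466, limma) and Rps27a did not (0.0548, limma). With the library total both were lower (log2 fold change −2.86 for Rps27a and −2.82 for Fau). Rps27a, made with ubiquitin at its start, had 182 and 168 against 80 and 83 normalized counts (log2 fold change 1.09, adjusted p = 0.0547, limma). Fau, made with a ubiquitin-like protein, had 256 and 247 against 107 and 121 (log2 fold change 1.14, adjusted p = 0.0511, limma). Of the paralogues Rps27 and Rps27l, Rps27 was the more abundant, at 287 and 196 against 61 and 56 normalized counts, and passed the test at 4.01-fold (95% interval of the log2 fold change 1.32 to 2.68, adjusted p = 0.0427, limma). Per kilobase of coding length the mean levels were 958 for Rps27 and 206 for Rps27l in the mitochondrial fraction, and 232 and 59.5 in the rest fraction. Members with the tract at the start shown above had a median log2 fold change of 1.28 (6 tested, 4 called higher), and members with an entry but no such tract had a median of 1.58 (18 tested, 10 called).

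Rps10, the remaining member, was not tested. It had 0 and 3 against 5 and 3 normalized counts, or about 0 and 1 against 19 and 8 reads. On the same strand, an annotated readthrough gene, RPS10-NUDT3, overlapped 20.6% of the exon bases of Rps10, and 9.26% of the 75-base words of its coding sequence occurred in no other annotated gene. Reads that fell on several genes or regions were excluded before counting, so a level near 0 for Rps10 cannot be told apart from a loss of reads at that step. The downstream gene of the readthrough, Nudt3, had 167 and 110 against 101 and 73.

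The same exclusion touches most of the family. Of the 33 members, 31 shared at least 1 word of 75 bases (the read length) with another annotated gene and 10 had no unique word at all in the coding sequence. Rps3, which was called higher, had a fully unique coding sequence. The 10 tested members with no unique word had a median log2 fold change of 1.64 (7 called). The 14 with some but under 50% unique words had 1.28 (5 called), and the 8 with 50% or more had 1.56 (6 called). The Pearson correlation of the unique share with the log2 fold change was −0.14 over the 32 members, a description over genes of the same libraries. Excluded reads lower the level of each member to an unknown extent, so that differences in level between members are uncertain. Small nucleolar RNA genes overlapped exon bases of some members on the same strand. The share of exon bases overlapped in this way was 13.7% in Rps12 (Snora33, Snord100 and Gm23130), 7.32% in Rps2 (Snora64) and 3.23% in Rps3.

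The other lists of the translation machinery were not uniform. Among the 46 tested large subunit genes 22 were called higher and 0 lower, with a median log2 fold change of 1.35. Rack1, a scaffold protein that sits on the small subunit and is no member by the rule, had 542 and 388 against 209 and 204 normalized counts (log2 fold change 1.15, adjusted p = 0.0604, limma). Of 24 initiation factor genes that act on the small subunit, 3 were called higher and 0 lower, with a median of 0.68. The 3 were Eif3a (1.32), Eif5b (1.26) and Eif3g (1.42). Of 38 genes for the assembly of the small subunit 0 were called in either direction by limma (2 higher and 1 lower at an unadjusted p under 0.05), and their median was 0.08. The 5 kinases of Rps6 or named after it also gave 0 calls, and 0 at an unadjusted p under 0.05, with a median of −0.31. Among them, Rps6kb1, the main S6 kinase, had 89 and 51 against 101 and 104. The proteins of the small subunit of the mitochondrial ribosome are also encoded in the nucleus and made in the cytosol. Genes named for it were listed by symbol only (Mrps and a number). Of these, 3 of 25 tested genes were called higher and 0 lower, with a median of 1.03. Differences between lists were not tested.

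**Figure D4:**
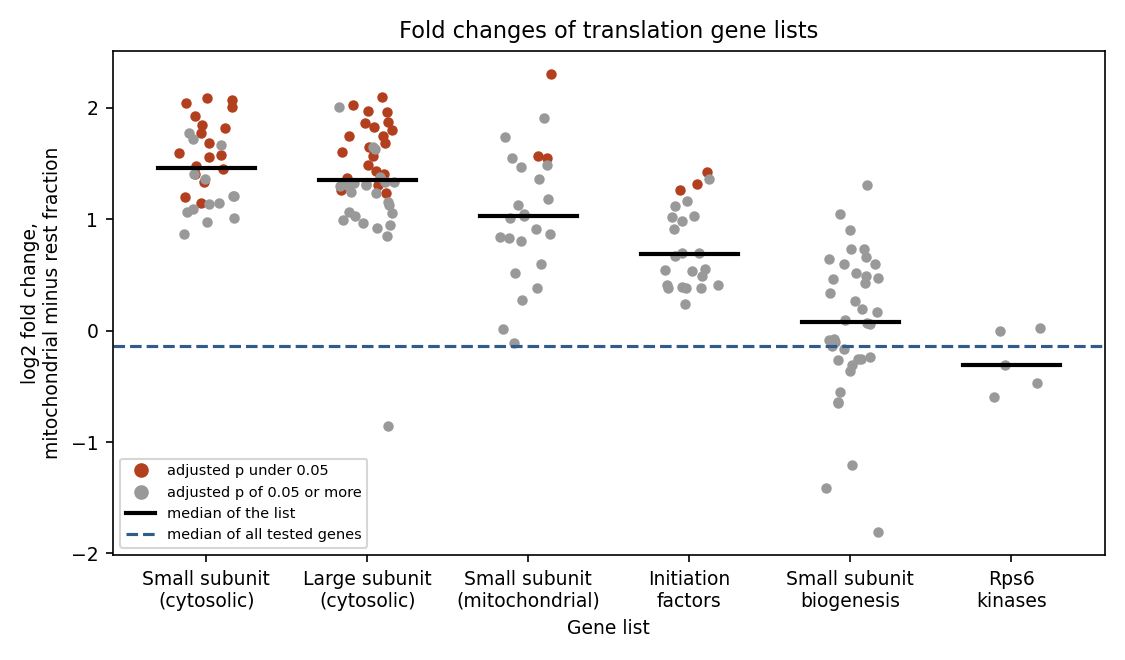
Log2 fold change of each tested gene in 6 lists of the translation machinery, with the list's median (black line) and the median of all tested genes (dashed). The members (median 1.46) and the large subunit (1.35) lie highest, and assembly factors (0.08) and Rps6 kinases (−0.31) near the median of all tested genes.

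Short genes in general stood higher in the mitochondrial fraction. Among nuclear protein-coding genes outside the cytosolic ribosome, the median log2 fold change was 0.87 for the 609 tested genes with a coding length under 450 bases, 0.33 for the 1887 genes from 450 to 900 bases, −0.03 for the 2848 genes up to 1500 bases, −0.34 for the 3484 genes up to 3000 bases and −0.62 for the 1693 longer genes. The tested members fall into the first 2 classes only, with a median of 1.59 for 17 members under 450 bases and 1.40 for 15 members from 450 to 900 bases. In these classes 13.8% and 2.81% of the other genes were called higher, and 23.2% and 5.4% exceeded the members' median of 1.46. Coding length moves with the fold change over the whole table, and its part in the members' values was not tested. Within the members the Pearson correlation of coding length with the log2 fold change was −0.22, a description over 32 genes that share the libraries.

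**Figure D5:**
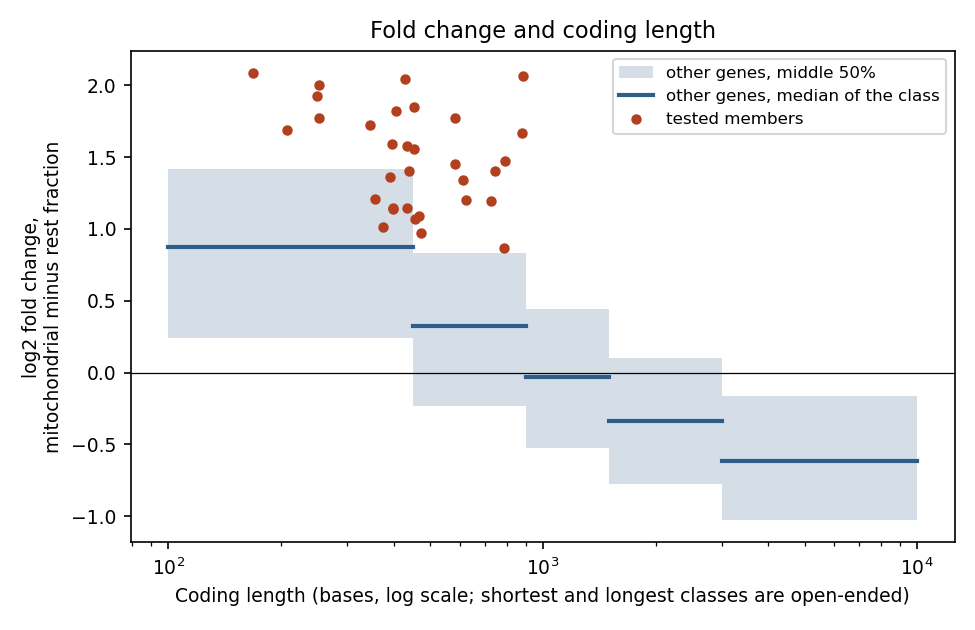
Log2 fold change against coding length (log scale). Points are the 32 tested members, horizontal lines the median and shaded boxes the middle 50% of other tested nuclear protein-coding genes in each length class. The members lie above the median of the other genes in both of their classes, 0.87 and 0.33.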

How the data were processed

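The authors trimmed reads with Trimmomatic 0.39, aligned them to mm10 with STAR 2.7.10a, counted reads on exons with featureCounts 2.0.2 and normalized the counts with DESeq2 1.30.1, as named in the submitters' processing notes, and the paper's methods give other versions for STAR, featureCounts and DESeq2. Reads on several genes or regions were excluded. Use of strand is not given in the sources used here. The authors deposited a signal per gene and library: counts scaled by size factors, then rounded to integers. The table also holds the authors' own comparison, which was not used.

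Reads per library were estimated from the spacing of the values. Since the step of 1 read is below 1 normalized count in both rest libraries, whole reads could not be restored and no count test was run. Fractions were compared with limma 3.58.1 (R 4.3.3) with a mean-variance trend on log2(normalized count + 1), which understates the change of low genes, for genes reaching 10 normalized counts in 2 or more of the 4 libraries. Called means an adjusted p under 0.05. Fold changes are mitochondrial over rest. The scripts were tested on simulated data.

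Gene positions are as deposited, and the spans of all 33 members equal those of GENCODE M21 for GRCm38, from which coding lengths and 75-base words were taken. Start regions came from RefSeq (GRCm38.p6), without an entry for 8 members. Python 3.11.15 and pandas 2.3.3 were used.

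For 4 members, counted in all totals, values are not reported here. Members and lists were chosen with earlier results of these data known. Genes named are the called members, the 3 highest and lowest in fold change and in mean level, members under the filter and members with a set role. Rps15a, Rps18, Rps20, Rps26, Rps2, listed genes outside the members and Nudt3 are named beside this rule, after their values were seen. Alternatives were 3 scalings, 2 filters, 2 pseudocounts, the replicate block and each library left out.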

Additional observations from a re-analysis of the deposited data

How the results depend on the processing

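With all alternatives but the library total, no tested member with at least 10 normalized counts in 2 libraries changed direction. With the library total 0 members were called higher and 32 lower, where 98.9% of all tested genes were lower, the members' median log2 fold change was −2.49, and it was −2.57 for Rps6, −2.77 for Rps3, −2.41 for Rps14, −2.80 for Rps19, −1.92 for Rpsa, −2.86 for Rps27a, −2.82 for Fau, −3.10 for Rps4x, −1.95 for Rps27 and −2.05 for Rps27l. With the total without the mitochondrial chromosome 5 were called higher (1.06% of all tested genes) and the median was 0.60. With means above 50 normalized counts 30 were called higher (14.2% of all genes tested there), and with a pseudocount of 0.1 the number was 0, as over all tested genes. Leaving out any 1 library gave 0 called higher among members and among all genes, the lone library being assumed to vary like the others, and the medians ran from 1.41 to 1.57. Recomputed size factors gave 26, where 511 of all 12150 tested genes were called higher, against 262 on the deposited scale. No filter gave 19 (17 of the 18 kept), where 279 of 15746 tested genes were called higher. A pseudocount of 10 gave 27, where 536 of 12150 tested genes were called higher. With the replicate block 23 were called higher, which include all 18, where 470 of 12150 tested genes were called higher. The members' median log2 fold change with the block was 1.46. Neither labels nor methods say whether same-numbered libraries come from the same hearts. The deviations of same-numbered libraries correlated with r = 0.13 over 12150 genes and 0.50 over the 32 members. The mitochondrial libraries, with a median of 75.5 and 106 reads per member, had the larger relative counting error.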

Other observations

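Rows of the table outside the rule bear the names of members. Among 41 pseudogenes named for a member, a list made after the values were seen, 32 were tested, 4 were called higher and 0 lower (limma, with 23 higher and 0 lower at an unadjusted p under 0.05), with a median log2 fold change of 1.53. Their summed normalized counts were 2116 and 1763 in the mitochondrial and 634 and 654 in the rest libraries. Rps3a3, a processed pseudogene of Rps3a1, had 232 and 222 against 87 and 80, and the pseudogene Rps10-ps2 had 77 and 48 against 13 and 10, more than Rps10 itself in each library. Rps4l, a transcribed processed pseudogene in the table and the paralogue of Rps4x, had 12 and 8 against 12 and 10 (log2 fold change −0.14, adjusted p = 0.852, limma). Rps27rt, a protein-coding retrogene of Rps27, had 15 and 15 against 4 and 4 (adjusted p = 0.107, limma). Rps18-ps5, listed as protein_coding, had 4 and 31 against 3 and 10. Reads of these copies and of the members cannot be told apart where their sequences are the same.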
